A study of Arabidopsis thaliana with 8 samples.

Results

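The mitochondrial respiratory chain genes on the ATH1 array, as chosen here, are 10 genes, of the 13350 to which a probe set is assigned alone, read by 17 of the 22810 probe sets. They were chosen by name. Each is assigned to exactly 1 gene, that gene is not on the chloroplast genome, and its symbol starts in lower case with nad, cox, cob or ccm. Of the 17 probe sets, 15 belong to 8 nad genes and 2 belong to 2 cox genes. No probe set with 1 gene had a symbol starting with cob or ccm. All 17 were matched by symbol to a gene of the mitochondrial genome in the TAIR10.1 gene table, which holds 18 nad, cox, cob and ccm genes. RNA came from whole shoots of Arabidopsis thaliana, labelled Col-1, that had 4 rosette leaves. The plants grew on agar under a 16 h day, and harvest was 6 h after its start. Each of 7 numbered spike mixes and a reference spike mix, sets of RNAs added to the shoot RNA, was measured on 1 array. The labels give the same shoots for all 8 arrays and do not say whether the RNA was prepared once or several times.

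The mitochondrial nad genes encode subunits of complex I, which passes electrons from NADH to ubiquinone and pumps protons. The cox genes encode the core of complex IV, cytochrome c oxidase, which reduces oxygen. Most other subunits of both complexes are encoded in the nucleus. In plant mitochondria many transcripts are spliced and edited from C to U. The messages of nad1, nad2 and nad5 are joined from pieces transcribed separately. Poly(A) tails there mark RNA for degradation, unlike those of nuclear messages. The labels do not say how the RNA was primed for labelling.

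The table gives a linear signal for each probe set, scaled by the submitters so that the 2% trimmed mean was 100 on every array. Signals at or below 12.9, the 25th percentile of the table, were set to that floor. "Native" probe sets are the 22731 that are neither manufacturer's controls nor among the 15 that spanned at least 16-fold over the arrays, of which none is a nad or cox probe set. Across native probe sets with a mean at or above the table median of 42.5, the Pearson r between arrays was 0.976 to 0.992 in 28 pairs. The 4 measured leaf markers were all far above the floor, with LHCB4.1, for a light-harvesting protein, at 3358 to 4427, and the flower marker AT5G07230 lay below it on all 8 arrays. The root hair expansin genes EXPA7 and EXPA18 had 17.2 to 29.3 and 17.3 to 35.0, and the root marker PYK10 had 838 to 1056. No mix has a second array, so no comparison of a mix with the reference mix has a test. Precision is limited by how few arrays there are. Values given with ± are the mean and SD over the 8 arrays, which carry different mixes. The labels do not say what the spike mixes contained. With 1 array per mix, an effect of the added RNAs on endogenous transcripts cannot be told apart from a difference between arrays.

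Signal of the mitochondrial genes was above the floor on all 8 arrays for 12 of the 17 probe sets and on no array for 3. Over all native probe sets those shares were 66.5% and 16.5%, against 70.6% and 17.6% here. Per array, 12 or 13 of the 17 lay above the floor. The genes with at least 1 probe set above it throughout were nad1, nad4, nad4L, nad5, nad6, nad9, cox1 and cox2. The single probe sets of nad7 and nad2 stayed below it everywhere, at 4.5 to 11.5 and 0.9 to 8.5. A signal below the floor gives only an upper bound for that probe set and does not show that the transcript is absent.

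**Figure D1:**
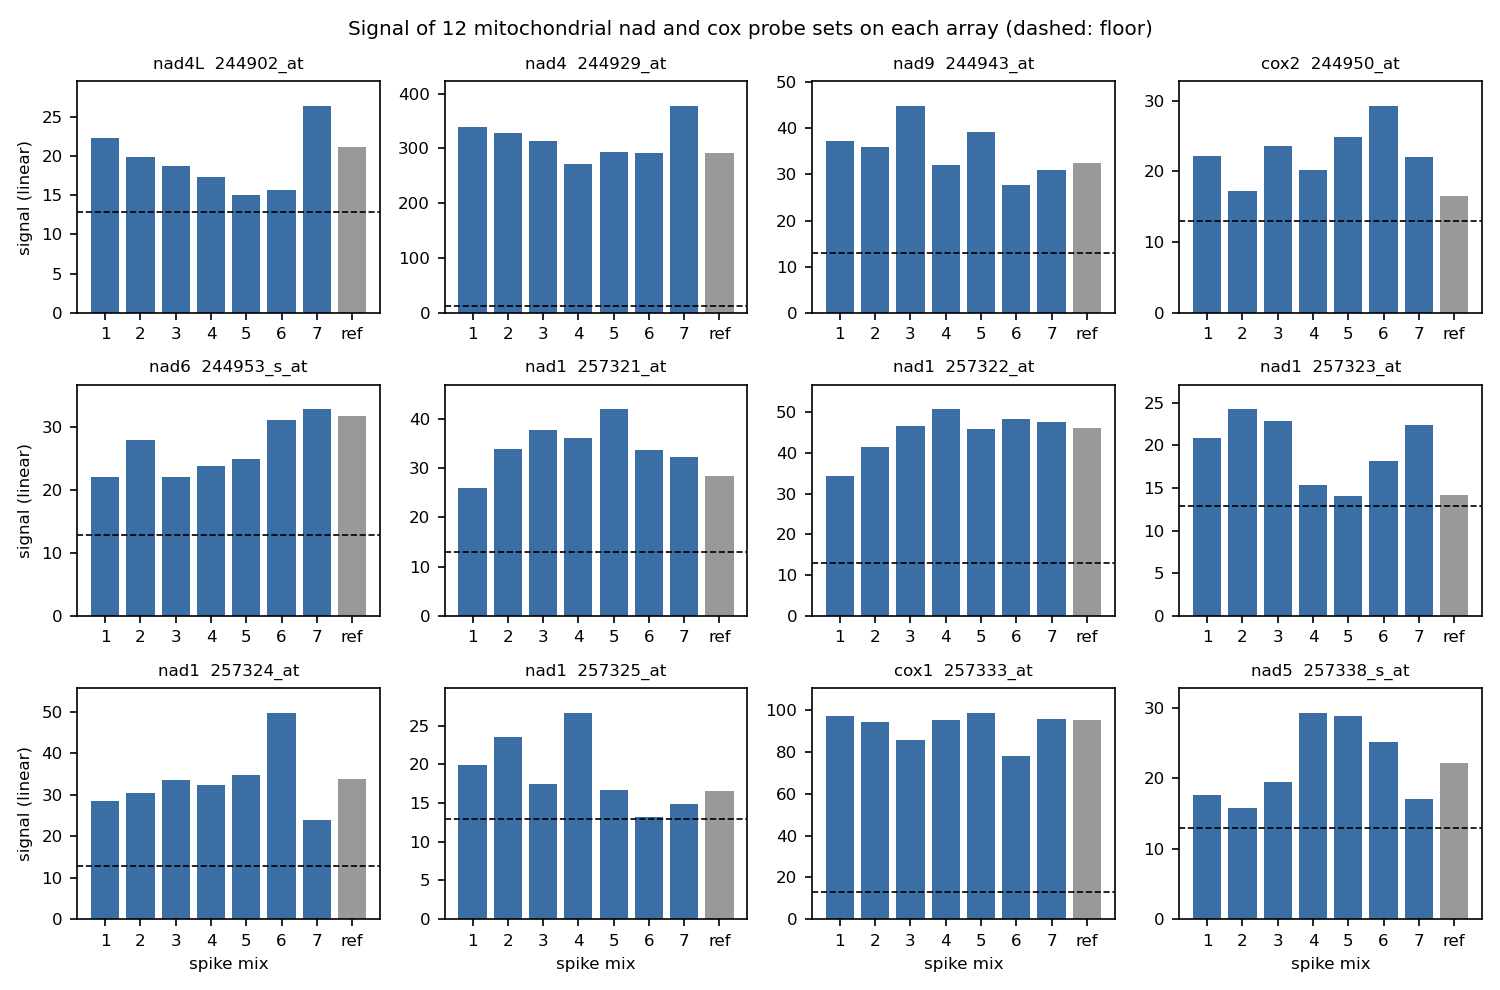
Linear signal (vertical axis, from 0) of the 12 nad and cox probe sets that lay above the floor on all arrays, 1 bar per array for mixes 1 to 7 and the reference mix (ref, grey). The dashed line is the floor of 12.9. nad4 lies between 272 and 377 and cox1 between 78.1 and 98.9, while nad1 257325_at comes down to 13.2 in mix 6.

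The membrane arm of complex I pumps protons, and nad4 encodes one of its pumping subunits. Its signal was 338, 328, 314, 272, 294, 291 and 377 in mixes 1 to 7, against 292 on the reference array. It was highest in mix 7 and lowest in mix 4, a range of 1.39-fold. The log2 ratio to the reference array was 0.37 in mix 7 and -0.10 in mix 4. After quantile normalization these were 0.40 and -0.07, and with a common array median they were 0.32 and -0.21. The sign of the nad4 ratio in mixes 5 and 6 turned with the scaling. It was 0.01 and -0.00 as deposited, 0.06 and 0.05 after quantile normalization, and -0.07 and -0.12 with a common median. Setting a common median moved all unfloored probe sets of mixes 4 and 6 down by 0.11 and 0.12 against the reference array.

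nad1 encodes a membrane subunit next to the ubiquinone site and had 7 probe sets, of which 5 lay above the floor on all arrays. The probe set 257322_at had 34.3, 41.5, 46.6, 50.7, 45.8, 48.4 and 47.7 in mixes 1 to 7, against 46.1 on the reference array. It was lowest in mix 1, with a log2 ratio of -0.43, and the other 7 arrays lay between 41.5 and 50.7. Its ratios of 0.02, 0.07 and 0.05 in mixes 3, 6 and 7 became -0.06, -0.05 and -0.00 with a common median. In mix 1, 257321_at was also at its lowest, 26.0, against 28.3 on the reference array and 32.3 to 41.9 in the other mixes. The other 3 did not follow. 257323_at was lowest in mix 5, at 14.0, with 14.2 on the reference array, and highest in mix 2, at 24.2. 257324_at stood highest in mix 6, at 49.8, and lowest in mix 7, at 23.9, with 33.9 on the reference array. 257325_at stood highest in mix 4, at 26.7, and lowest in mix 6, at 13.2, with 16.6 on the reference array. These last were the only members that spanned at least 2-fold over the arrays, 2.08-fold and 2.02-fold. Of native probe sets, floored alike, 9.13% spanned at least 2-fold, and of those with a mean from 13.1 to 42.4, where both belong, 30.4% did.

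The nad1 probe sets thus disagreed about which array was high. Over the 15 pairs that could be computed, the Pearson r over the 8 arrays had a median of 0.03 and ran from -0.37 to 0.60, and the highest was that of 257321_at with 257322_at. Some of these pairs include 257329_at, held at the floor on all but 2 arrays, so their r rests on those 2. The remaining nad1 probe sets lay at or near the background. 257327_at had 1.3 to 9.9 and never passed the floor, and 257329_at had 3.8 to 16.4 and passed it on 2 arrays. Which exon of nad1 each probe set covers is not used here.

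The other membrane-arm genes had signals close to the floor. nad4L, a small membrane subunit, had 22.3, 19.9, 18.7, 17.4, 15.1, 15.7 and 26.4 in mixes 1 to 7, against 21.2 on the reference array. Its highest array was mix 7, as for nad4, and its lowest was mix 5. nad6 had 22.1 in mixes 1 and 3, where it was lowest, and 32.8 in mix 7, where it was highest, against 31.8 on the reference array. nad5, another proton-pumping subunit, had 2 probe sets. 257338_s_at had 29.3 in mix 4, 28.9 in mix 5 and 15.8 in mix 2, against 22.1 on the reference array, and 257337_at was above the floor in mixes 1 and 5 alone, at 14.2 and 18.9. The r between the pair over the 8 arrays was 0.43, and it rests on mixes 1 and 5, since 257337_at was held at the floor elsewhere. The suffix _s_at marks probe sets that match more than 1 sequence, and Arabidopsis carries a long insertion of mitochondrial DNA on nuclear chromosome 2. A nuclear copy therefore cannot be told apart for nad5 257338_s_at and nad6, and for the other members this was not checked.

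The peripheral arm of complex I, which binds NADH and carries the iron-sulfur clusters, is represented by nad9 and nad7. nad9 had 37.3, 35.9, 44.8, 32.0, 39.2, 27.7 and 30.9 in mixes 1 to 7, against 32.5 on the reference array. Its highest array was mix 3, with a log2 ratio of 0.46, and its lowest mix 6, with -0.23. nad7 was below the floor throughout, so its ratios cannot be read.

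Both cox genes encode catalytic subunits of complex IV, and cox1 was the steadiest of the 12. cox1 had 97.2, 94.4, 85.9, 95.4, 98.9, 78.1 and 95.9 in mixes 1 to 7, against 95.3 on the reference array, with a mean of 92.6 ± 7.02 (SD, n = 8 arrays). All but mixes 3 and 6 lay between 94.4 and 98.9, and the range was 1.27-fold. In mixes 4, 5 and 7 the sign of its ratio turned with the scaling. It was 0.00, 0.05 and 0.01 as deposited, and -0.11, -0.03 and -0.04 with a common median. In mix 6 the log2 ratio was -0.29 as deposited, -0.31 after quantile normalization and -0.40 with a common median. cox2 had 22.1, 17.2, 23.6, 20.2, 24.8, 29.2 and 22.0 in mixes 1 to 7, against 16.5 on the reference array. It was lowest on the reference array and highest in mix 6, where the log2 ratio of 0.82 was the largest among the 12 probe sets above the floor on all arrays. For nad5 257337_at, which had 18.9 in mix 5 and 4.0 with the reference mix, the floored log2 ratio of 0.55 is only a lower bound.

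None of the 12 nad and cox probe sets above the floor on all arrays was 2-fold from the reference array in any mix. The other 5 had no readable ratio, since a value at the floor makes it a bound, and none of their floored ratios reached 2-fold. With the floor at the 10th percentile of the table, 2.7, those 5 gave 3, 3, 1, 5, 3, 3 and 1 probe sets at least 2-fold away in mixes 1 to 7. Of all 22731 native probe sets, the share at least 2-fold away in either direction was 0.625%, 0.374%, 0.488%, 1.51%, 1.06%, 1.94% and 0.761% in mixes 1 to 7, and 4.43% were so in at least 1 mix. For an upper range of native probe sets, those with a mean at or above 42.5, it was 0.176%, 0.0969%, 0.123%, 0.291%, 0.159%, 0.564% and 0.229%, and 1.1% in at least 1 mix. A count of 0 is near these shares and is no result about the genes. Over the 12 probe sets above the floor on all arrays, the median log2 ratio was between 0.02 and 0.05 in each mix, and the highest and lowest ratios were 0.82 and -0.52. The median over that upper range was 0.00 in each mix. Over native probe sets with a mean from 13.1 to 42.4, where 9 of the 12 belong, the median was 0.00, 0.00, 0.06, 0.18, 0.13, 0.22 and 0.07. In mix 6, 273 of those 5684 were at least 2-fold higher and 87 at least 2-fold lower, the most of any mix. In each mix, between 6 and 8 of the 12 exceeded their signal on the reference array. All 7 comparisons share the 1 reference array.

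**Figure D2:**
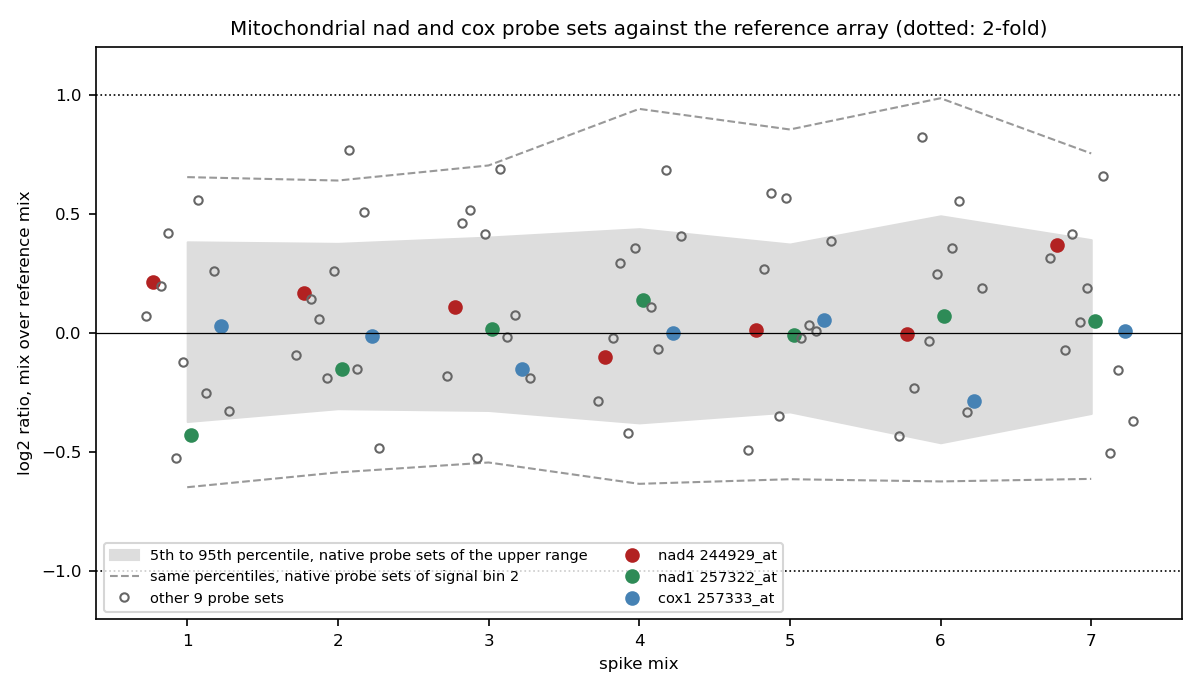
Log2 ratio of each mix to the reference mix (vertical axis) for the 12 probe sets above the floor on all arrays, by mix number. The grey band holds the 5th to 95th percentile of native probe sets with a mean at or above 42.5, the dashed lines the same percentiles in the signal bin from 13.1 to 42.4, and the dotted lines mark 2-fold. Every point lies inside the 2-fold lines, and nad4 in mix 7 (0.37), nad1 257322_at in mix 1 (-0.43) and cox1 in mix 6 (-0.29) are the largest for the 3 filled colours.

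Only 3 members, nad4, cox1 and nad1 257322_at, had a mean at or above the table median, and the other 14 lay below it. Their SD of log2 signal was 0.12 for cox1, 0.15 for nad4 and 0.18 for nad1 257322_at. When the native probe sets were divided by mean signal into 4 bins of like size, the median SD was 0.17 in the bin of cox1 and nad1 257322_at, from 42.4 to 116, and 0.12 in the bin of nad4, above 116. Of the 9 members in the bin from 13.1 to 42.4, 4 had an SD above its median of 0.29 and 5 below it. nad5 257338_s_at, nad1 257325_at and nad1 257323_at had the largest, 0.35, 0.34 and 0.32. nad9, nad1 257321_at and nad6 had the smallest of these 9, 0.22, 0.22 and 0.24. The median over all 17 was 0.22, and the 3 probe sets held at the floor on every array count there as 0.

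**Figure D3:**
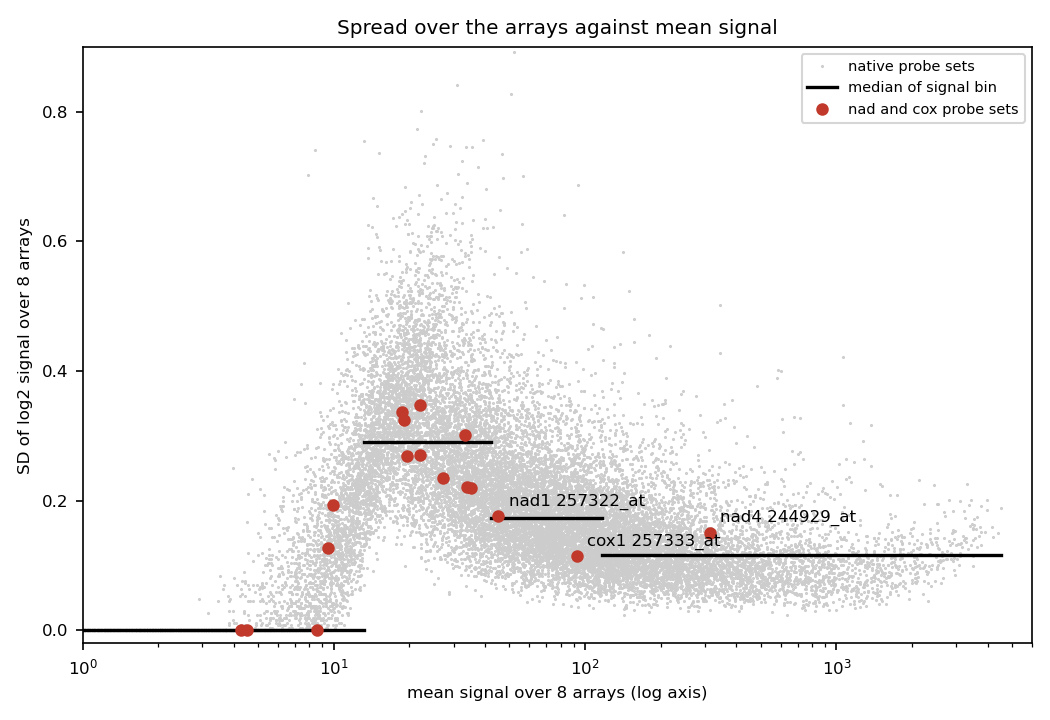
SD of log2 signal over the 8 arrays (vertical axis) against mean signal (horizontal log axis). Grey points are native probe sets, black lines the median of each of 4 signal bins and red points the nad and cox probe sets. cox1 lies under the line of its bin, nad4 above its own at 0.15, and the 9 members of the bin from 13.1 to 42.4 lie on both sides of 0.29.

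The r of each member with the mean profile of the other 16 had a median of -0.31 and ran from -0.72, for nad4L, to 0.81, for nad1 257321_at. It was above 0 for 5 of the 14 members whose floored signal varied. The median was -0.44 with a common array median, -0.13 after quantile normalization, -0.13 without mixes 4, 5 and 6 and -0.084 with the floor at 2.7. Against the members' mean profile, all native probe sets of the upper range had a median r of -0.01, and native probe sets of any signal 0.06. For 6 probe sets of other mitochondrial genes the median was 0.44. Of these, 4 had an r above 0, from 0.12 to 0.80, and 2 were constant at the floor. The median was 0.05 for the ndh genes of the chloroplast, -0.08 for all chloroplast genes and -0.17 for nuclear respiratory genes. None of these differences was tested. Of the 3 pairs among nad4, cox1 and nad1 257322_at, the r was 0.22 for nad4 with cox1, -0.33 for nad1 with cox1 and -0.43 for nad4 with nad1. The points of each r share the arrays and their scaling. The TAIR10.1 gene table was read with 1 start per gene, although nad1, nad2 and nad5 are joined from separate pieces. Ordered by that start, nad1 and cox1, nad2 and nad6, and nad5 and nad7 follow each other among the protein-coding genes of the mitochondrial genome. The 5 upper-range probe sets most like the mean profile were AT4G09630 at r = 0.95, 253531_at and 245491_at at 0.94, and AT1G79160 and 248282_at at 0.91. They are the top of 11349 values of r over 8 arrays, which reached -0.95 at the other end, so their r is the outcome of a search and no sign of relatedness. The mean profile itself moved only from -0.05, on the reference array, to 0.04, in mixes 3 and 5, on the log2 scale.

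A measure of RNA type differed far more between the arrays than a measure of RNA quality. The 25S rRNA control, which reads a ribosomal RNA, had 2198, 1774, 592, 495, 1191, 272 and 494 in mixes 1 to 7, against 847 on the reference array. Relations to it were computed for every native probe set with a mean at or above 42.5. So were relations to a 3'/5' ratio, the mean over the controls for actin, GAPDH and ubiquitin, which reads how complete the labelled RNA was towards its 5' end. That ratio varied little, from a mean log2 of 0.56 in mix 2 to 0.72 in mix 4. nad1 257322_at was lowest where the 25S control was highest, with r = -0.83 (two-sided exact permutation p = 0.00208, n = 8) and Spearman rho = -0.93 (exact permutation p = 0.00223). Adjusted over all 22704 relations by Benjamini-Hochberg, the exact permutation p was 0.53 for r and 0.44 for rho. Without the arrays of mixes 1 and 6, the farthest from the median of the control on the log2 scale, r was -0.89. An unadjusted exact permutation p under 0.05 was met by 8.47% of probe sets for r and 6.76% for rho, and none passed after adjustment. The smallest p that the orders of 8 arrays can give is 2.48e-05 for r.

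For nad4 the relation to the 25S control had r = 0.27 (exact permutation p = 0.521, adjusted p = 0.868) and rho = 0.38 (exact permutation p = 0.36, adjusted p = 0.811). Without mixes 1 and 6, r was -0.05. cox1 had r = 0.67 (exact permutation p = 0.067, adjusted p = 0.595) and rho = 0.45 (exact permutation p = 0.267, adjusted p = 0.758), and r = 0.28 without those arrays, so the larger value rests on them. With the 3'/5' ratio, r was -0.38 for nad4 (exact permutation p = 0.352), 0.33 for nad1 257322_at (exact permutation p = 0.408) and 0.46 for cox1 (exact permutation p = 0.252). Adjusted p was 0.791, 0.819 and 0.739 by the same exact permutation test. Spearman rho was -0.38, 0.31 and 0.55, with exact permutation p = 0.36, 0.462 and 0.171 and adjusted p = 0.811, 0.854 and 0.687. Without mixes 2 and 4, the farthest from the median ratio on the log2 scale, the 3 values of r were 0.03, -0.07 and 0.86. The array offers a second set of control probe sets for the same 3 genes. With it, cox1 had r = 0.75 (exact permutation p = 0.0239, adjusted p = 0.604) and rho = 0.71 (exact permutation p = 0.0576, adjusted p = 0.733), and r was 0.79 without mix 5 and the reference array. nad4 then had r = 0.07 (exact permutation p = 0.879) and nad1 257322_at 0.01 (exact permutation p = 0.989), and without the same arrays r was 0.58 and -0.13. Of all probe sets, 7.09% then met an unadjusted exact permutation p under 0.05 for r, and none passed after adjustment. The second set was computed first and the set reported above was taken after both had been seen, so the unadjusted p of cox1 depends on a choice made with the results known.

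With the 3'/5' ratio as first given, 8.64% of probe sets met an unadjusted exact permutation p under 0.05 for r and 10.3% for rho, and none passed after adjustment.

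**Figure D4:**
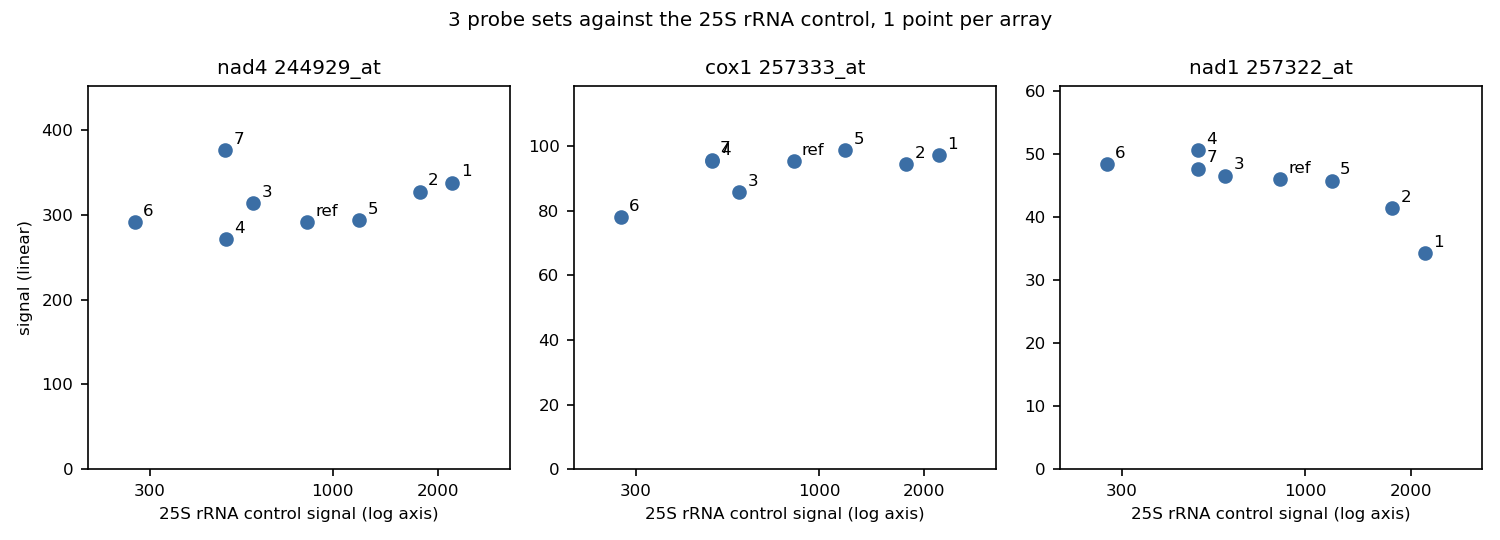
Linear signal (vertical axes, from 0) of nad4, cox1 and nad1 257322_at against the signal of the 25S rRNA control (horizontal log axes), 1 point per array labelled with its mix number or ref. nad1 257322_at is lowest, at 34.3, in mix 1, where the control is highest, at 2198, and cox1 is lowest, at 78.1, in mix 6, where the control is lowest, at 272.

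Other genes of the mitochondrial genome were measured by 6 probe sets with 1 gene each. Of these, 4 carry older ccb symbols, which the gene table lists as synonyms of genes for cytochrome c maturation, the attachment of haem to cytochrome c. ccb382 (ccmFN1) had 193, 197, 202, 212, 210, 203 and 196 in mixes 1 to 7, against 184 on the reference array. It was lowest on the reference array, and its SD over the arrays was 9.10. ccb452 (ccmFC) had 76.0 to 92.2 and ccb206 (ccmB) 31.5 to 42.8. ccb203 (ccmFN2) and matR, a maturase gene, stayed below the floor, at 2.5 to 6.6 and 1.3 to 2.6. orfX (mttB), for a membrane transport protein, had 123 in mix 6 and 76.8 in mix 3, against 89.4 on the reference array. The probe sets of orfX, ccb452 and matR carry the suffix _s_at, so a nuclear copy cannot be told apart for them either. The SD of log2 signal was 0.07 for ccb382, 0.08 for ccb452, 0.16 for ccb206 and 0.22 for orfX, and none of these 4 was 2-fold from the reference array.

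Nuclear genes for subunits of the same complexes were measured in part. Here and below, a listed gene counts as measured where a probe set is assigned to it alone. Since 8794 probe sets have no name here, the other listed genes may still be on the array. For complex I, 7 of 17 listed genes had a probe set of their own, all above the floor, with ranges of 1.17-fold to 1.29-fold. AT5G11770 and AT3G03070 had the highest means, 615 ± 54.3 and 536 ± 35.7 (SD, n = 8 arrays), and AT5G11770 and AT2G20360 the largest SDs of log2 signal, 0.13 and 0.12. FRO1, a complex I subunit needed for cold-responsive gene expression, had 489 to 571. For complexes II and III, 10 of 16 genes had 11 probe sets, 9 of them above the floor throughout. MPPBETA, for a processing peptidase that is part of complex III, had 651 ± 53.7, and AT4G32470 had 607 ± 50.2 (SD, n = 8 arrays). SDH1-1, the flavoprotein of succinate dehydrogenase, had 136 to 174, and SDH1-2 stayed below the floor at 1.6 to 4.9. AT5G25450 had the widest range of the list, 1.93-fold, from 23.3 in mix 1 to 44.9 in mix 5, and the reference array gave 39.9. SDH2-1, the iron-sulfur subunit, had 209 to 249 on one probe set and 1.6 to 3.6 on another.

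For cytochrome c and complex IV, 8 of 13 genes were measured, all above the floor. CYTC-1, for cytochrome c itself, had the narrowest range of them, 1.10-fold, at 889 ± 25.5, and AT4G37830 had 1282 ± 83.6 (SD, n = 8 arrays). AT3G62400 had 382, 377, 385, 307, 287, 376 and 380 in mixes 1 to 7, against 292 on the reference array, and the largest SD of the list, 0.19. AT1G02410 followed at 0.17. CCMH, for a protein of cytochrome c maturation and the only 1 of 3 such nuclear genes measured, had 16.0 in mix 4 and 30.0 in mix 5, against 27.5 on the reference array. No probe set of these lists that lay above the floor on all arrays was 2-fold from the reference array in any mix. Their median SD of log2 signal was 0.10 for complex I, 0.12 for complexes II and III and 0.15 for cytochrome c and complex IV, against 0.12 in the signal bin above 116 and 0.14 over native probe sets with a mean at or above 42.5.

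Plant mitochondria also hold NAD(P)H dehydrogenases that pass electrons on without pumping protons, and 4 of 12 genes of alternative respiration were measured. NDC1 had 124 ± 11.3 and NDB1 81.1 ± 13.1 (SD, n = 8 arrays). NDB1 reached 105 in mix 4 (83.8 on the reference array). NDB2 reached 54.9 in mix 6 (45.8 on the reference array). NDB2 and NDB1 had the largest SDs of the list, 0.28 and 0.22, and NDB4 was below the floor everywhere. Of 22 listed nuclear genes for mitochondrial transcription and RNA processing, 5 were measured, and 1 of them, AT5G46920, was above the floor on all arrays, at 48.8 to 86.1. OTP43, for a protein that acts in the splicing of nad1, had 8.9 in mix 4 and 23.7 in mix 6, against 15.1 on the reference array. AT5G14580 reached 23.0 in mix 3, and AT3G48810, with the largest SD of the list, 0.37, had 8.5 to 23.1. No probe set of these last 2 lists that lay above the floor on all arrays was 2-fold from the reference array. For the others a ratio can be a bound, as for AT3G48810, with 8.5 in mix 7 against 20.2 on the reference array, and AT5G15700, with 16.0 in mix 2 against 4.5.

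**Figure D5:**
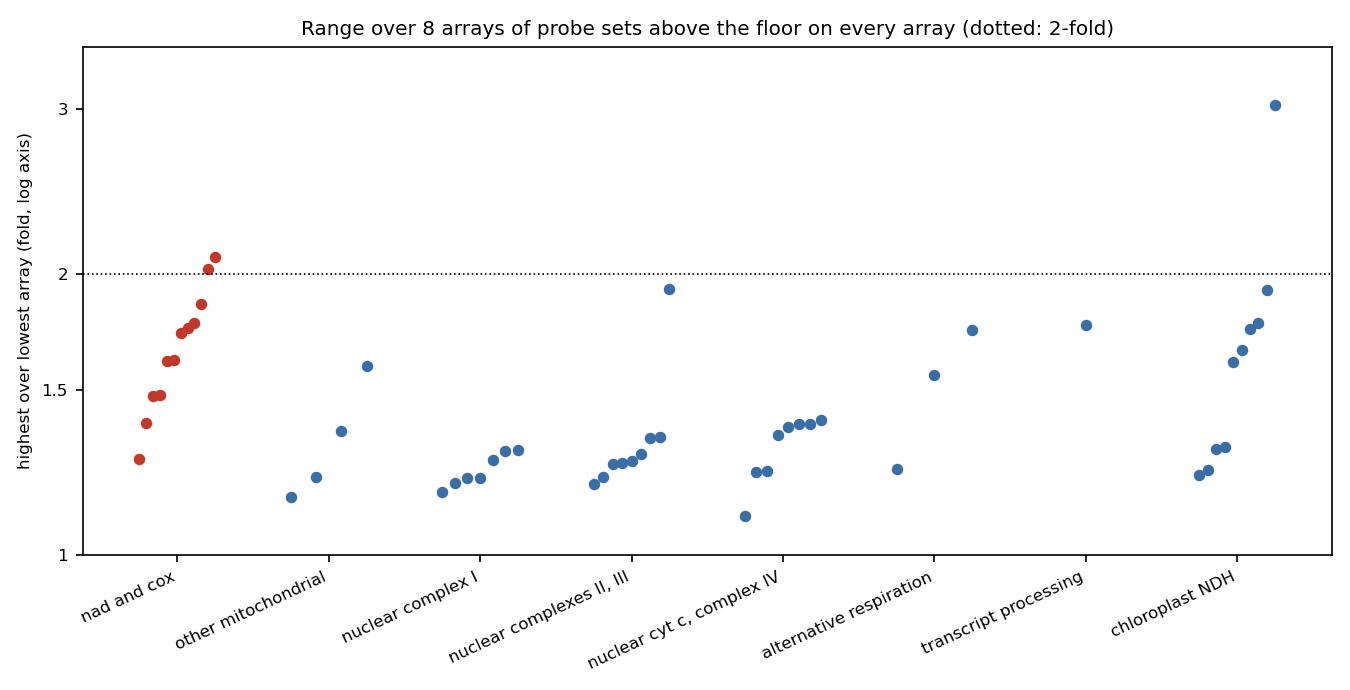
Highest over lowest signal across the 8 arrays (vertical log axis) for each probe set above the floor on every array, grouped by list, with the dotted line at 2-fold. nad and cox probe sets (red) run from 1.27-fold to 2.08-fold, nuclear complex I genes from 1.17-fold to 1.29-fold, and the chloroplast gene ndhF reaches 3.03-fold. The lists differ in signal. All nuclear complex I probe sets have a mean above 116, and 9 of the 12 nad and cox probe sets have a mean from 13.1 to 42.4. The median SD of native probe sets was 0.12 and 0.29 in those bins, so the ranges of the lists are not like for like.

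The chloroplast genome encodes a related complex, NDH, whose ndh genes are homologous to nad genes. The 10 ndh probe sets with 1 gene had a median SD of log2 signal of 0.23 and lay above the floor on all arrays. ndhF, the counterpart of nad5, had 27.9, 43.6, 54.3, 17.9, 20.3, 43.4 and 40.4 in mixes 1 to 7, against 25.9 on the reference array, and was the only 1 of them 2-fold from it. ndhD, the counterpart of nad4, had 2249, 1890, 1905, 1928, 1989, 2186 and 2299 in mixes 1 to 7, against 2138 on the reference array. As for nad4, its highest array was mix 7, but its lowest was mix 2. ndhA, the counterpart of nad1, had 881 in mix 4 and 1695 in mix 1, against 1167 on the reference array, whereas nad1 257322_at was highest in mix 4 and lowest in mix 1. Of the 10 ndh probe sets, 6, 6, 6, 3, 3, 6 and 8 exceeded their signal on the reference array in mixes 1 to 7. Of all 69 chloroplast probe sets, 48, 45, 41, 25, 40, 39 and 56 did. The median log2 ratio over the ndh probe sets was highest in mix 2, at 0.26, and lowest in mix 5, at -0.07. Over the 12 nad and cox probe sets it was 0.02 in both of these mixes, which were picked as the ends of the ndh medians. No test of this difference was possible with 1 array per mix.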

How the data were processed

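Signal was measured on 8 ATH1 arrays, 1 for each of 7 spike mixes and 1 for the reference mix. The deposited table holds linear intensity values, which MAS5 produced, per the submitters' processing notes. No version or detection call is given. They were used as deposited.

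The platform table assigns 13513 probe sets to 1 gene and 503 to more than 1, and the remaining 8794 have no name here. Mitochondrial genes, whose identifiers differ between the tables, were matched by symbol or synonym to the TAIR10.1 gene table. Values were floored at the 25th percentile, 12.9, and log2 was taken. Calls are ratios of at least 2-fold to the reference array, with no test. Relations over the arrays used two-sided exact permutation p over all orders of the arrays, with Benjamini-Hochberg adjustment over 22704 relations, and rest on the spread between these arrays, which may be technical.

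The members and lists were chosen with earlier results of these data known. All members are named. Full values go to the 2 highest means among nad and among cox, the 4 largest and 4 smallest SDs at or above the table median (only 3 exist) and any member 2-fold from the reference array, and other members were added after their values were seen. Of each other list, the 2 highest means and 2 largest SDs are given, with more genes chosen after their values were seen.

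Alternatives were a common median, quantile normalization, other floors and thresholds, another comparator and leaving out arrays. The choice between the 2 sets of 3'/5' controls, the definition of list medians in the search for single far arrays, the counts of wide ranges, the SDs by signal bin and the tolerances for a moved value were settled after values were seen. Steps were tested on simulated data. Python 3.11.15, numpy 2.4.6, pandas 2.3.3 and matplotlib 3.10.9 were used.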

Additional observations from a re-analysis of the deposited data

Results flagged for a closer look

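Of 24 measures, which were the signals of the members that varied and the median centred log2 signal of each list, 4 set a single array apart. On unfloored values chance would give about 1 in 20, and that rate does not apply here, since values held at the floor widen the gap. nad1 257329_at had 16.4 in mix 3, where it was highest, and 3.8 to 14.4 on the other arrays, most of them under the floor. nad5 257337_at had 18.9 in mix 5, where it was highest, and 4.0 to 14.2 on the other arrays. Both passed the floor of 12.9 on only 2 arrays. On the unfloored linear signals the gap was 0.159 and 0.315 of the whole range, under the critical value, so neither stood apart without the floor. The median over all 17 nad and cox probe sets was -0.015 in mix 4 and 0 on every other array, and 5 of the 17 had floored values. The median over the nuclear genes of complexes II and III was 0.048 on the reference array and -0.0081 to 0 in the mixes. When list medians were taken only over probe sets above the floor on all arrays, a change made after the 4 had been seen, 2 of 24 measures remained, and they were the nad1 and nad5 probe sets.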

How the results depend on the processing

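No paired analysis was possible because each mix has 1 array and every array carries the same replicate number. Most signals lie within a few-fold of background, so the floor decides much. Lowering the floor to the 10th percentile, 2.7, changed this: the count of members at least 2-fold away in mixes 1 to 7 was 3, 3, 1, 5, 3, 3 and 1, against 0 in each as reported. These were 5 probe sets, none of which lay above 12.9 on all arrays, and the median r of members with the profile of the others was -0.084. No share of native probe sets at the floor of 2.7 was computed to set beside those counts. With the floor at the 40th percentile, 27.7, 3 members lay above it on all arrays in place of 12, and the median SD was 0.027. At a 1.5-fold threshold 1 member was counted in each of mixes 2 to 7 and 0 in mix 1. They were cox2 in mixes 5 and 6, nad1 257323_at in mixes 2, 3 and 7 and nad1 257325_at in mix 4. The share of native probe sets past 1.5-fold was not counted, so these counts are no result about the genes. All of them have a mean from 13.1 to 42.4. The 95th percentile of the log2 ratio over native probe sets there ran from 0.64, in mix 2, to 0.99, in mix 6. Without each array in turn, the median SD ran from 0.19 to 0.24 and the median r from -0.36 to -0.21. The median r was -0.13 after quantile normalization and -0.13 without mixes 4, 5 and 6. The relation of nad4 to the 3'/5' ratio turned to r = 0.068 with the manufacturer's other control probe sets, the set computed first, and the cause was not tested. In all, 128 of 145 values from 18 settings stayed on the same side or within the spread, 16 moved and 1 reversed. Part of the 128 was fixed in advance. A 3-fold threshold, a higher floor or fewer members could only leave the count past the threshold at 0. A median r of -0.13 was also counted as unmoved, so the total is no measure of how robust the results are.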

Other observations

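Further respiratory genes of the mitochondrial genome were read by probe sets that are also assigned to a locus of nuclear chromosome 2, so the organelle and nuclear copies cannot be told apart. 263509_s_at, assigned to cox3 and AT2G07687, had 63.8 to 90.2 and was above the floor on all 8 arrays. 266045_s_at, assigned to cob, the cytochrome b of complex III, and AT2G07727, had 37.8 to 53.4 and was likewise above it on all 8. Another 2, each assigned to nad1 and a nuclear locus, had 10.1 to 24.6 and 6.8 to 19.4 and were above the floor on 7 and 5 arrays.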
